A study of Mus musculus with 48 samples.

Results

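Among the genes that the tumour suppressor p53 can switch on, 8 that restrain or regulate the cell cycle were followed in hippocampal microglia of irradiated juvenile mice: Cdkn1a, Ccng1, Psrc1, Gtse1, Plk2, Plk3, Btg2 and Gadd45a. The members were taken by gene symbol, and all 8 were found among the 48526 genes of the expression table. C57BL/6 mice received a single X-ray dose of 8 Gy to the whole brain (IR) or a sham procedure (SH) on postnatal day 21. Hippocampi were taken at 2h, 6h, 1d and 1w from 6 IR and 6 SH animals per time, which gives 48 libraries, each from its own animal. Microglia, the resident macrophages of the brain, were freed with enzymes and sorted on the expression of Cx3cr1, a chemokine receptor of these cells, and their total RNA was sequenced in bulk. No genetic alteration is given in the labels for either group, and neither the sex nor the working batch of an animal is stated.

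DNA double-strand breaks activate p53, which binds a repeated decamer near its target genes and raises their transcription. Cdkn1a encodes p21, which blocks cyclin-dependent kinases and so holds cells before DNA replication; Gadd45a and Btg2 act at the G2 and G1 checkpoints, while cyclin G1, Gtse1, Psrc1 and the polo-like kinases tune p53 itself, the spindle or the centrosome. Microglia of the juvenile brain renew themselves by slow division, and radiation is known to stop dividing cells in the hippocampus.

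Values are RPKM, reads per kilobase of gene span (introns included) at a library total scaled to 1000000 reads, recomputed from the deposited table with the total of each library; sums over gene lists are in RPM, which has the same scaling without the length. Changes are IR minus SH, with a standard error, in log2(RPKM + 1), a scale that understates changes of genes with low values. They come from a limma fit over all 10132 genes with at least 1 RPKM in at least 6 libraries, and "called" means a Benjamini-Hochberg adjusted p below 0.05 over all of these genes. All 8 genes passed that filter, but Gtse1 and Psrc1 did so through irradiated libraries alone: no sham library reached 1 RPKM for either gene, so that their calls follow in part from the filter and are given as descriptions.

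Library totals ran between 175382 and 3856777 reads (median 2212424), and 3 libraries lay under 1000000 reads: IR 2h library 2, SH 6h library 4 and SH 1d library 6. All 10 microglia markers were detected in every group, and their sum was at least 23267 RPM in every library. That sum was 31632 to 35132 RPM in IR and 42250 to 45436 in SH at 6h, and 23267 to 33170 in IR and 34165 to 43825 in SH at 1d, without overlap. The markers did not all move alike. At 6h the median of P2ry12 was 2140 RPM in IR and 4668 in SH. Tmem119 alone of the 10 had the higher median in IR, 6900 against 5775. In bulk RNA, fewer cells of a type, less RNA per cell and changes of single marker genes cannot be told apart. In earlier results of these data, SH 6h libraries 5 and 6 stood apart from SH 6h libraries 1 to 4. The 6h results are therefore also given against libraries 5 and 6 alone. There 158 genes were higher and 54 lower in IR, against 1309 and 811 with all 6 and 1883 and 1179 with libraries 1 to 4. Fewer animals stand behind the comparison with 2 sham libraries, so a call lost in it does not show that a change was absent.

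The start regions of Cdkn1a, Ccng1, Gtse1 and Psrc1 are shown as a description of their letters. These genes do not all carry the same p53 sequence there, and its part in the changes was not tested. The RefSeq windows (GRCm38.p6) run over 300 bases, 250 before and 50 after an annotated start. They were searched on both strands for the p53 consensus decamer, a palindromic motif that is given here by its name, and for pairs of decamers with 0 to 13 bases between them and at most 1 mismatch in 20 bases. Decamers can overlap and were each counted. Of 32851 such windows, 8.36% held a decamer without mismatch and 1.09% a pair. Capitals mark decamers without mismatch and both decamers of each pair.
Cdkn1a chr17:29090729-29091028 plus strand: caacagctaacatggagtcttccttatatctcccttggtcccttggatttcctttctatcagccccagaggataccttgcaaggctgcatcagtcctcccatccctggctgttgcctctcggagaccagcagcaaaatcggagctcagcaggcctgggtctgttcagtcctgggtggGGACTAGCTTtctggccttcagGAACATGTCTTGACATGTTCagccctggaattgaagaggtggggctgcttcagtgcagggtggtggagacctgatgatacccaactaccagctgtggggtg
Ccng1 chr11:40755237-40755536 minus strand: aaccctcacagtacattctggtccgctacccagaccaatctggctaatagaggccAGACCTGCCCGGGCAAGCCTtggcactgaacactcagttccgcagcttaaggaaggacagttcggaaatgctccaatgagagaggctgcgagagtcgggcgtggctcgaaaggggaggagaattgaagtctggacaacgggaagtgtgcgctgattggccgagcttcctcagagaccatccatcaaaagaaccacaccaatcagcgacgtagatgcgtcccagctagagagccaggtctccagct
Gtse1 chr15:85859696-85859995 plus strand: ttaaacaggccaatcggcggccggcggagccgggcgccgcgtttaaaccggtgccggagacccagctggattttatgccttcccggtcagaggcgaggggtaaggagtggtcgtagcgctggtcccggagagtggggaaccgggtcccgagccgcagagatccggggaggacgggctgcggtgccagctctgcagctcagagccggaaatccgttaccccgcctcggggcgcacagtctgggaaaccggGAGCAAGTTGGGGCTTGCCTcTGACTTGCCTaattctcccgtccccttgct
Psrc1 chr3:108383588-108383887 plus strand: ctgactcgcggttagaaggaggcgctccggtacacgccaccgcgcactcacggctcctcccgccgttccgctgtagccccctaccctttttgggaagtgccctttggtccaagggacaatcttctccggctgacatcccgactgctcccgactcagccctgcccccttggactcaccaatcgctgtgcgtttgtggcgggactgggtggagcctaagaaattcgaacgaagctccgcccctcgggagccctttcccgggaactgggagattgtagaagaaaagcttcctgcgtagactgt

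The Cdkn1a window held 2 decamers without mismatch, 12 bases apart, and a second pair with 1 mismatch overlapped them. A pair with 1 mismatch and no spacer lay in the Ccng1 window and in the downstream Gtse1 window, each with 1 decamer without mismatch. In that Gtse1 window the same decamer also forms a pair with the last marked decamer, with 1 mismatch and 1 base between them. Neither Psrc1 window, nor the windows of Plk2, Plk3 and Btg2, held a decamer without mismatch, and the other windows of Cdkn1a and Gtse1 held none either. The Gadd45a window held 1 decamer and no pair. A match is a description of letters, and its absence says only that these letters are not in this window.

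**Figure D1:**
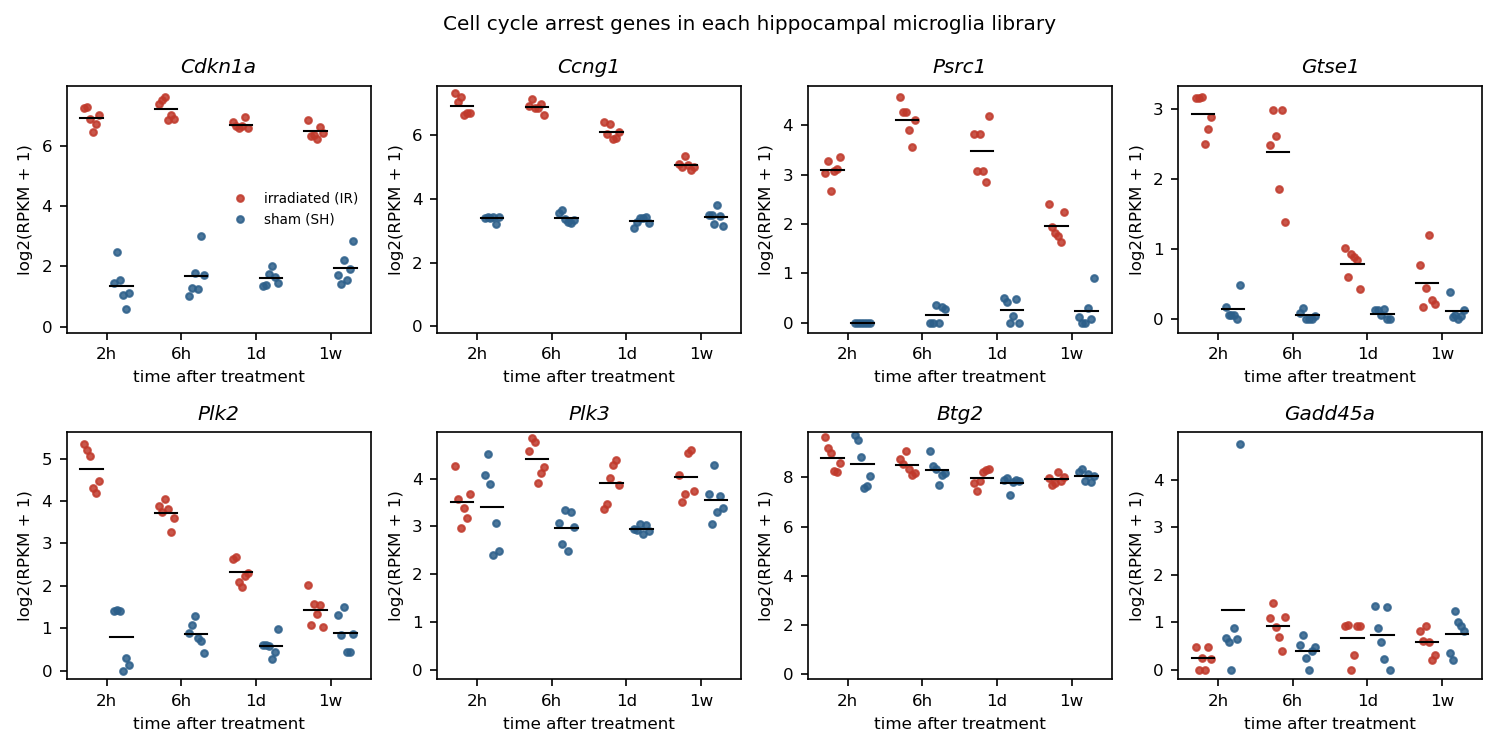
Each point is 1 library, red for irradiated (IR) and blue for sham (SH), with time after treatment on the x axis, log2(RPKM + 1) on the y axis and black bars at the group means (n = 6). All irradiated libraries lie above all sham libraries for Cdkn1a, Ccng1 and Psrc1 at every time, whereas the groups of Btg2 overlap at every time.

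Irradiated microglia held more RNA of most of these genes from the first time on. Cdkn1a, Ccng1, Psrc1, Gtse1 and Plk2 rose at 2h, Plk3 joined them at 6h and 1d, and Cdkn1a, Ccng1 and Psrc1 were still called at 1w. That is 5 of 8 genes higher at 2h (4.6% of all genes tested were called higher), 6 at 6h (12.9%), 6 at 1d (2.9%) and 3 at 1w (2.03%). Among the 6 genes that also reached 1 RPKM in sham libraries, 3, 4, 4 and 2 were higher at these times. limma called 0 of 8 genes lower at any time, against 4.02% of all genes at 2h, 8% at 6h, 1.39% at 1d and 1.51% at 1w. At an unadjusted p under 0.05 Gadd45a was lower at 2h, and voom, which models the reads, also called 0 lower. The called genes were also those whose 6 irradiated libraries all lay above the 6 sham libraries, which 2.47% of all genes did at 2h, 4.96% at 6h, 2.29% at 1d and 2.06% at 1w. Within the 6 genes that also reached 1 RPKM in sham libraries, these were again 3, 4, 4 and 2. Against SH 6h libraries 5 and 6 alone, the 6h changes were 4.88 for Cdkn1a, 3.60 for Ccng1, 3.81 for Psrc1, 3.16 for Plk2 and 2.36 for Gtse1, all called. Btg2 and Gadd45a, though named as targets of the same pathway, were not called at any time.

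Cdkn1a (ENSMUSG00000023067, chr17:29090979-29100722, plus strand, GRCm38) encodes p21, the inhibitor of cyclin-dependent kinases that carries much of the arrest by p53. At 2h it lay between 86.5 and 156 RPKM in IR libraries (median 123), and between 0.496 and 4.55 RPKM in SH libraries (median 1.43). At 6h the IR libraries held 116 to 199 RPKM (median 148) and the SH libraries 1.03 to 6.99 RPKM (median 1.84). The lowest irradiated library was far above the highest sham library at both times. The mean was 68.6-fold higher in IR than in SH at 2h and 58.9-fold higher at 6h, a change of 5.58 ± 0.25 (SE, limma adjusted p = 1.16e-21) and of 5.55 ± 0.25 (limma adjusted p = 9.01e-22).

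At 1d the Cdkn1a values were 95.2 to 124 RPKM in IR (median 99.6) and 1.52 to 3.04 RPKM in SH (median 1.95). At 1w they were 75.0 to 116 RPKM in IR (median 83.3) and 1.65 to 6.16 RPKM in SH (median 2.54), a week after a single dose still without overlap. The ratio of means was 50.1 at 1d and 29.1 at 1w, and the changes were 5.11 ± 0.25 (limma adjusted p = 4.68e-20) and 4.54 ± 0.25 (limma adjusted p = 1.25e-17). Among the 10132 genes, the change of Cdkn1a on the log2(RPKM + 1) scale ranked 2 from the top at 2h and 1 at each later time. That scale understates changes of genes with low values. The ratio of means at 6h was 139 for Gtse1 and 133 for Psrc1, above that of Cdkn1a, but on 10 and 8 sham reads. At 1w it was 6.08 and 14.3, below that of Cdkn1a. The Cdkn1a effect at 1w was 1.03 ± 0.35 smaller than at 2h on the log2 scale, which was not called (limma adjusted p = 0.0896). SH 2h library 2 was the sham library with the highest Cdkn1a value of that time. Without it the difference was -1.26 and was called (limma adjusted p = 0.0175).

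Ccng1 (ENSMUSG00000020326, chr11:40748552-40755311, minus strand), the gene of cyclin G1, which recruits a phosphatase to Mdm2 and so feeds back on p53, varied little among sham libraries. It held 99.9 to 161 RPKM in IR (median 117) and 8.38 to 9.92 RPKM in SH (median 9.71) at 2h. At 6h it held 98.2 to 141 RPKM in IR (median 118) and 8.56 to 11.5 RPKM in SH (median 9.34). The irradiated level then came down while the sham level kept means of 8.92 to 9.96 RPKM. At 1d the values were 58.1 to 84.8 RPKM in IR (median 66.3) and 7.49 to 9.80 RPKM in SH (median 9.10), and at 1w 29.3 to 39.6 RPKM in IR (median 31.9) and 7.91 to 12.9 RPKM in SH (median 10.1). The mean at 2h was 124 ± 26.0 RPKM in IR and 9.52 ± 0.566 RPKM in SH (SD, n = 6 each), and it was 12.3-fold higher in IR at 6h, 7.76-fold at 1d and 3.30-fold at 1w. The changes were 3.54 ± 0.12, 3.49 ± 0.12, 2.81 ± 0.12 and 1.64 ± 0.12, the last with a limma adjusted p of 2.45e-14. Between 2h and 1w the effect fell by 1.91 ± 0.16 on the log2 scale (limma adjusted p = 2.89e-11).

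Psrc1 and Gtse1 both encode proteins that bind microtubules, and both were close to silent without irradiation. Psrc1 (ENSMUSG00000068744, chr3:108383839-108388231, plus strand) encodes the spindle protein DDA3, described in mice as a product induced by p53. No read of it was found in the 6 SH libraries at 2h, where 3 reads over the group would be 0.0675 RPKM, against 5.33 to 9.28 RPKM in IR (median 7.51), at least 112-fold higher. At 6h the values were 10.8 to 22.6 RPKM in IR (median 17.2) and 0 to 0.287 RPKM in SH. At 1d they were 6.17 to 17.3 RPKM in IR (median 10.2) and 0 to 0.414 RPKM in SH, and at 1w 2.10 to 4.32 RPKM in IR (median 2.68) and 0 to 0.880 RPKM in SH. Every irradiated library lay above every sham library at all 4 times. The changes were 3.08 ± 0.18, 3.95 ± 0.18, 3.21 ± 0.18 and 1.73 ± 0.18, the last with a limma adjusted p of 4.44e-09. The sham groups held 0, 8, 15 and 18 reads of Psrc1 at 2h, 6h, 1d and 1w. With voom, which has no pseudocount of 1 RPKM, the changes were 6.76, 6.96, 5.16 and 4.43 and stayed called.

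Gtse1 (ENSMUSG00000022385, chr15:85859707-85876572, plus strand) encodes a protein of G2 and S phase that carries p53 out of the nucleus. It held 4.66 to 7.98 RPKM in IR (median 7.12) and 0 to 0.390 RPKM in SH at 2h, and 1.60 to 6.92 RPKM in IR (median 4.85) and 0 to 0.11 RPKM in SH at 6h. At 1d the range was 0.346 to 1.02 RPKM in IR and 0 to 0.0963 RPKM in SH, still without overlap. At 1w it was 0.127 to 1.30 RPKM in IR and 0 to 0.297 RPKM in SH, and 3 of 6 irradiated libraries lay above all sham libraries. The irradiated level of Gtse1 thus dropped early, between 6h and 1d. The changes were 2.79 ± 0.18 at 2h, 2.34 ± 0.18 at 6h, 0.71 ± 0.18 at 1d (limma adjusted p = 0.0100) and 0.41 ± 0.18 at 1w (limma adjusted p = 0.206). With a pseudocount of 0.1 the 1w change was 1.53 and called (limma adjusted p = 0.0282), and with voom it was 2.66 (adjusted p = 0.0177). The pseudocount of 1 compresses values this low, and with voom the changes at 2h, 6h and 1d were 6.52, 6.84 and 3.39. The sums of Gtse1 reads at 1w were 125 in IR and 24 in SH.

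Plk2 and Plk3 are paralogous polo-like kinases with different courses. Plk2 (ENSMUSG00000021701, chr13:110395044-110400844, plus strand) acts in centriole duplication and in the response to stress. At 2h its values in IR libraries 1 to 6 were 39.8, 36.2, 32.4, 18.8, 17.3 and 21.3 RPKM, and in SH libraries 1 to 6 they were 1.66, 1.71, 1.65, 0, 0.227 and 0.103 RPKM. Libraries 1 to 3 were the higher ones in both groups, and the groups did not overlap. At 6h it held 8.58 to 15.4 RPKM in IR (median 12.6) and 0.323 to 1.45 RPKM in SH (median 0.772), and at 1d 2.93 to 5.38 RPKM in IR (median 3.80) and 0.210 to 0.983 RPKM in SH (median 0.507). At 1w the groups overlapped, with 1.03 to 3.04 RPKM in IR (median 1.73) and 0.352 to 1.82 RPKM in SH (median 0.800).

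The mean of Plk2 was 31.0-fold higher in IR at 2h, 14.6-fold at 6h, 7.88-fold at 1d and 1.88-fold at 1w. The changes were 3.99 ± 0.24, 2.86 ± 0.24, 1.73 ± 0.24 and 0.53 ± 0.24, and the last did not pass (limma adjusted p = 0.216; 1.08 with voom, adjusted p = 0.173). Among all genes, its rank by change on the log2(RPKM + 1) scale was 4 at 2h, 16 at 6h, 55 at 1d and 1031 at 1w.

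Plk3 (ENSMUSG00000028680, chr4:117128655-117133963, minus strand) is a stress-responsive kinase that can phosphorylate p53. Its span overlaps Tctex1d4, whose own sums were 23 to 111 reads per group; the strand setting of the counting is not given in the sources used here, so reads of the pair cannot be told apart. At 2h its values in IR libraries 1 to 6 were 18.3, 10.9, 6.78, 9.43, 8.05 and 11.8 RPKM, and in SH libraries 1 to 6 they were 15.8, 22.1, 13.8, 4.30, 7.44 and 4.62 RPKM. The groups overlapped, and SH libraries 1 to 3 were above SH libraries 4 to 6. At 6h it held 14.1 to 27.8 RPKM in IR (median 20.4) and 4.63 to 9.20 RPKM in SH (median 7.21), and at 1d 9.24 to 20.04 RPKM in IR (median 14.5) and 6.12 to 7.24 RPKM in SH (median 6.64). The groups did not overlap at 6h or 1d. At 1w they did, with 10.3 to 23.4 RPKM in IR (median 14.1) and 7.29 to 18.6 RPKM in SH (median 10.5).

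The Plk3 changes were 0.10 ± 0.27 at 2h (limma adjusted p = 0.904), 1.44 ± 0.27 at 6h (limma adjusted p = 0.000132), 0.95 ± 0.27 at 1d (limma adjusted p = 0.0305) and 0.47 ± 0.27 at 1w (limma adjusted p = 0.376). Of the 8 genes, Plk3 alone was called at 6h but not at 2h, and its effect was 1.34 ± 0.39 larger at 6h than at 2h (limma adjusted p = 0.0215). Against SH 6h libraries 5 and 6 alone, the 6h change was 1.27 and was not called (limma adjusted p = 0.0929). The 1d call was lost when SH 1d library 1, 2 or 4 or IR 1d library 3, 4 or 5 was left out, with changes of 0.86 to 0.96 and limma adjusted p of 0.0523 to 0.0820. Without a filter on low values the 1d change was 0.95 and was not called either (limma adjusted p = 0.0664).

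Btg2 (ENSMUSG00000020423, chr1:134075170-134079120, minus strand) slows entry into S phase and helps to remove the tails of messenger RNAs; it is also known as a gene that cells switch on within minutes of stimulation. At 2h its values in IR libraries 1 to 6 were 785, 577, 500, 301, 294 and 384 RPKM, and in SH libraries 1 to 6 they were 830, 735, 456, 188, 199 and 268 RPKM. The ranges of the groups overlapped, and libraries 1 to 3 were the high ones in both. At 6h Btg2 held 269 to 531 RPKM in IR (median 347) and 203 to 541 RPKM in SH (median 302). At 1d it held 171 to 323 RPKM in IR (median 266) and 153 to 252 RPKM in SH (median 232), and at 1w 205 to 297 RPKM in IR (median 239) and 222 to 319 RPKM in SH (median 269). The groups overlapped at every time. The changes were 0.24 ± 0.27 at 2h, 0.19 ± 0.27 at 6h, 0.20 ± 0.27 at 1d and -0.15 ± 0.27 at 1w, with limma adjusted p of 0.670 to 0.837. A p that misses the threshold does not show that Btg2 was unaffected.

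Gadd45a (ENSMUSG00000036390, chr6:67035096-67037457, minus strand) encodes a small stress protein that binds PCNA and the mitotic kinase Cdk1. It was hardly transcribed: 256 reads were counted over all 48 libraries, and 103 of these came from SH 2h library 6, at 26.1 RPKM. The other SH 2h libraries held 0 to 0.828 RPKM and the IR 2h libraries 0 to 0.398 RPKM. Values of the later groups ran between 0 and 1.65 RPKM. The changes were -1.01 ± 0.40 at 2h (limma adjusted p = 0.115), 0.54 ± 0.40 at 6h, -0.06 ± 0.40 at 1d and -0.18 ± 0.40 at 1w. Without SH 2h library 6 the 2h change was -0.31 (limma adjusted p = 0.499), and without SH 2h library 3, the sham library with no read, it was -1.26 and called (limma adjusted p = 0.0418). Its span overlaps E230016M11Rik, which held 2 to 27 reads per group, among them 19 in IR at 1w, where Gadd45a had 20, and 27 in SH at 1d, where Gadd45a had 29. Reads of this pair cannot be told apart without the strand setting either.

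**Figure D2:**
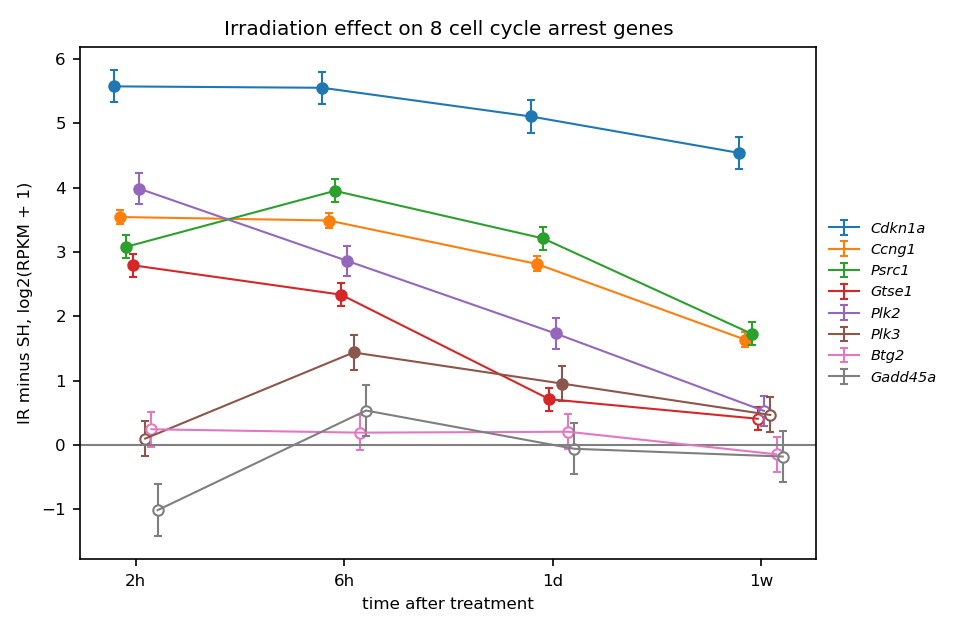
IR minus SH change on the log2(RPKM + 1) scale (y axis) against time after treatment (x axis), with bars of 1 standard error; filled circles passed a limma adjusted p of 0.05 and open circles did not. Cdkn1a stays between 4.54 and 5.58, Plk2 and Gtse1 come down to 0.53 and 0.41 at 1w, and Plk3 is highest at 6h.

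The genes therefore differed in how long their effect lasted, and that was tested as a change of the effect itself. A limma F test over the 4 times called 5 of 8 genes, Ccng1, Plk2, Gtse1, Psrc1 and Plk3, against 19.3% of all genes; Cdkn1a (adjusted p = 0.0732), Gadd45a (adjusted p = 0.181) and Btg2 (adjusted p = 0.813) were not called. Gtse1 and Psrc1 passed the filter on low values only through their irradiated libraries, so that among the 6 genes that also reached 1 RPKM in sham libraries 3 were called, Ccng1, Plk2 and Plk3. Between 2h and 1w the effect fell for 4 of 8 genes (1.94% of all genes were called lower): by 3.46 ± 0.33 for Plk2, by 2.39 ± 0.25 for Gtse1, by 1.91 ± 0.16 for Ccng1 and by 1.35 ± 0.25 for Psrc1. Of the 6 genes that reached 1 RPKM in sham libraries, 2 were among these, Plk2 and Ccng1. The Psrc1 call did not pass with voom, where the difference was -2.33 (adjusted p = 0.0534). In the sham groups alone, the F test over time called 0 of 8 genes against 21.1% of all genes, and at an unadjusted p under 0.05 it named Btg2 alone; no voom F test was run.

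Step by step, 3 genes were called between 2h and 6h: Plk3 rose by 1.34 ± 0.39 and Psrc1 by 0.87 ± 0.25 (5.56% of all genes were called higher), and Plk2 fell by 1.12 ± 0.33 (3.72% lower). Between 6h and 1d the effect fell by 1.63 ± 0.25 for Gtse1, by 1.13 ± 0.33 for Plk2 and by 0.68 ± 0.16 for Ccng1 (2.67% lower). Between 1d and 1w it fell by 1.48 ± 0.25 for Psrc1, by 1.20 ± 0.33 for Plk2 and by 1.18 ± 0.16 for Ccng1 (2.89% lower). Of the 6 genes that reached 1 RPKM in sham libraries, 2 were called at each step. The Gtse1 step and the last Ccng1 step were called with every pseudocount, filter and test tried on the recomputed values, whereas the Plk2 and Psrc1 steps and the Ccng1 step between 6h and 1d (-0.66 with voom, adjusted p = 0.0559) were each lost under at least 1 of them. For Psrc1 between 2h and 6h, the rise was 0.21 with a pseudocount of 0.1 and 0.20 with voom, neither called. Between 1d and 1w, voom gave -0.73 for Psrc1 (adjusted p = 0.557).

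Single libraries also decided several of these steps. Between 2h and 6h, Plk3 was not called without SH 2h library 2 (1.12, limma adjusted p = 0.0538), nor Psrc1 without IR 2h library 3 (0.79, limma adjusted p = 0.0510). Plk2 was not called there without SH 2h library 6, SH 6h library 3 or IR 6h library 5, with limma adjusted p of 0.0510 to 0.0551. Between 6h and 1d, Plk2 was called in 7 of 24 fits that left out 1 library each, with changes of -1.22 to -1.04. Between 1d and 1w it was not called without IR 1d library 2 (-1.13), SH 1w library 3 (-1.08) or IR 1w library 6 (-1.12). In turn, Psrc1 was called between 6h and 1d without IR 6h library 5 (-0.85, limma adjusted p = 0.0468) or IR 1d library 6 (-0.88, limma adjusted p = 0.0287), and Gadd45a between 2h and 6h without SH 2h library 3 (1.80, limma adjusted p = 0.0346). Against SH 6h libraries 5 and 6 alone, Gtse1 between 6h and 1d was the 1 step into or out of 6h that was called (-1.65, limma adjusted p = 0.00826), and Ccng1 gave -0.78 there (limma adjusted p = 0.0956).

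Levels can be set between genes only per length, and RPM divided by the kilobases of union exon (GENCODE M21) were used for this. On that scale Btg2 was the highest of the 8 genes in every group, with 682 in IR and 642 in SH at 2h. Cdkn1a ranked 2 in every irradiated group, at 341, 418, 286 and 245 over the 4 times, and 4 or 5 in the sham groups, at 4.97, 7.10, 5.71 and 8.44. Ccng1 ranked 3 in every irradiated group, with 238 at 2h and 63.2 at 1w, against 18.3 and 19.2 in the sham groups of these times. Neighbours in the order were not all separated: in SH at 2h, Plk3 (23.8) and Ccng1 (18.3) stood next to each other, and the Plk3 libraries spanned both sides of the Ccng1 mean. Psrc1 was the lowest in every sham group and Gadd45a in every irradiated group.

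**Figure D3:**
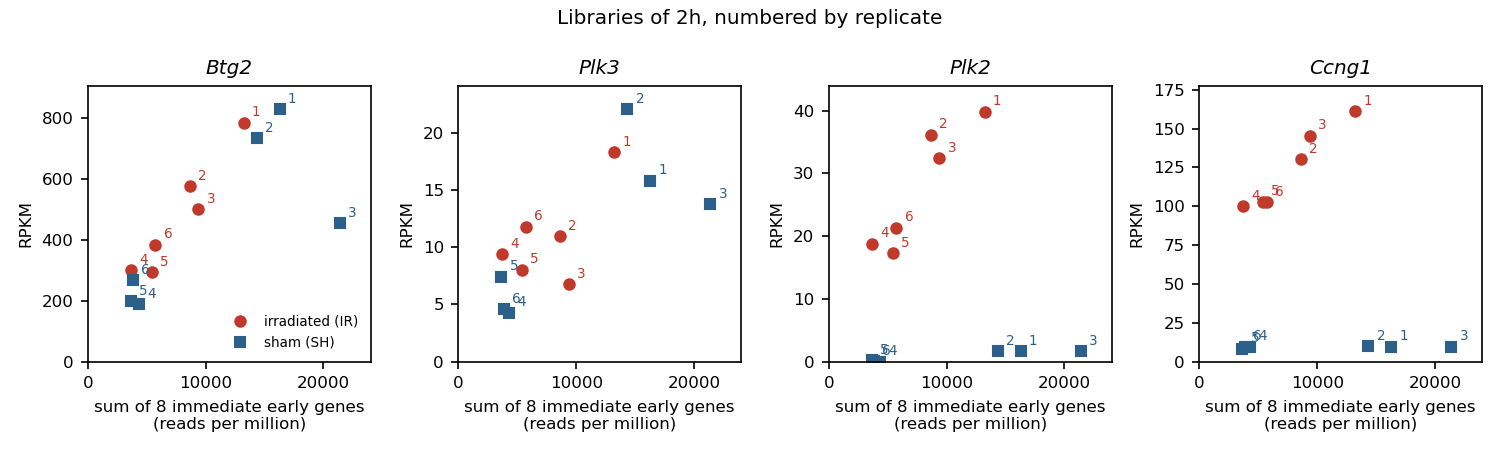
The 12 libraries of 2h, numbered by replicate, red circles for IR and blue squares for SH: RPKM of a gene (y axis) against the sum of 8 immediate early genes in RPM (x axis). Libraries 1 to 3 lie to the right of libraries 4 to 6 in both groups and are the higher ones for Btg2 in both, while the IR and SH values of Ccng1 and Plk2 stay apart along the whole axis.

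Immediate early genes, which cells can switch on during handling, moved with several of these values at 2h. The 8 listed genes (Fos, Jun, Junb, Egr1, Atf3, Ier2, Dusp1 and Fosb, none at 0 in any group) summed to 13219, 8629, 9388, 3693, 5401 and 5729 RPM in IR libraries 1 to 6, and to 16281, 14345, 21398, 4321, 3644 and 3829 in SH libraries 1 to 6. Libraries 1 to 3 were the high ones in both groups. The same held for Btg2 and Plk2 in both groups, for Ccng1 and Gtse1 in IR and for Plk3 and Cdkn1a in SH. Cdkn1a held 1.70, 4.55, 1.89, 1.07, 0.496 and 1.17 RPKM in SH libraries 1 to 6. Gtse1 held 7.86, 7.94, 7.98, 4.66, 5.54 and 6.39 RPKM in IR libraries 1 to 6. The same split stood in SH at 6h, with immediate early sums of 10287, 9917, 10135, 4526, 4595 and 4809 RPM in libraries 1 to 6. Btg2, Plk2 and Ccng1 were also higher in libraries 1 to 3 there, whereas Plk3, Gtse1 and Cdkn1a did not split. IR at 6h did not split in these sums, with 6048 RPM in library 2 and 6328 in library 6. limma called 0 of the 8 immediate early genes at any time. Of all genes it called 4.6% higher and 4.02% lower at 2h, 12.9% and 8% at 6h, 2.9% and 1.39% at 1d, and 2.03% and 1.51% at 1w. With 8 genes, 0 calls does not show that they were unaffected. At an unadjusted p under 0.05 limma named 1 at 6h and 1 at 1w. The part of the immediate early genes in the values of the genes named here, Cdkn1a among them, was not tested. The share of mitochondrial reads at 2h was 10.5% ± 3.03 in IR and 5.93% ± 2.49 in SH (SD, n = 6 each); its part was not tested either, and the 2h calls were the same 5 genes when mitochondrial genes were left out of the totals.

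The change over the 4 times was also set beside those of all other named genes, by the root mean square difference of the 4 log2 changes. Ccng1 lay closest to Sesn2, a stress-induced regulator of growth signalling, at 0.22, and Psrc1 also lay closest to Sesn2, at 0.58. Plk2 was closest to Trp53inp1 (0.38), a nuclear partner of p53, and Gtse1 to Sac3d1 (0.35). The closest to Cdkn1a, Phlda3, an inhibitor of Akt, was at 1.63. Among the 8 genes, Ccng1 and Psrc1 were the closest pair, at 0.38. The pseudocount of 1 RPKM compresses low values such as those of Psrc1, so nearness on this scale is not nearness in fold. The ratio of means was 133 for Psrc1 and 12.3 for Ccng1 at 6h, and 14.3 and 3.30 at 1w. Plk3 was closest to Commd4 (0.17), Btg2 to Tsn (0.02) and Gadd45a to Nudt22 (0.10), where many genes with small changes lie near each other. These are descriptions over 4 time points that share their libraries.

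Other p53 targets linked to arrest and senescence, a list of 20 genes of which 10 were tested, went the same way: 5 of 10 were higher at 2h (4.6% of all genes), 6 at 6h (12.9%), 5 at 1d (2.9%) and 4 at 1w (2.03%), and limma called 0 lower; at an unadjusted p under 0.05, 1 was lower at 2h and 1 at 1w. Their median change was 0.70, 0.89, 0.64 and 0.64, against -0.01, 0.08, 0 and 0.05 for all genes, and against SH 6h libraries 5 and 6 alone 5 of 10 were higher at 6h (1.56% of all genes). Trp53inp1 rose at all 4 times, with 25.7 ± 2.58 RPKM in IR and 1.59 ± 0.405 RPKM in SH at 2h, and 3.52 ± 1.31 RPKM in IR and 1.51 ± 0.442 RPKM in SH at 1w (SD, n = 6 each). Rps27l, a ribosomal protein paralog that stabilises p53, rose by 1.98 ± 0.22 at 2h and by 1.13 ± 0.22 at 1w, and Zmat3, which regulates splicing and mRNA stability, by 0.94 ± 0.16 and 0.60 ± 0.16. Pidd1, a scaffold that activates caspase-2, rose by 2.37 ± 0.21 at 6h. Ppm1d, the phosphatase that shuts p53 signalling down, rose by 0.82 ± 0.10 at 2h, and Pml by 0.69 ± 0.19 at 1w. Mean sham values stayed under 1 RPKM at all 4 times for Ppm1d (0.419 to 0.571) and Zmat3 (0.430 to 0.726). Their calls, also within the counts above, can therefore follow in part from the filter and are given as descriptions.

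Other inhibitors of cyclin-dependent kinases and paralogs of the 8 genes formed a list of 18, of which 11 were tested. limma called 0 at 2h (4.6% of all genes were called higher and 4.02% lower) and 0 at 1d (2.9% and 1.39%). With shares this small, 0 of 11 lies near that of all genes. An unadjusted limma p under 0.05 named 2 higher and 1 lower at 2h and 2 lower at 1d. At 6h 4 were higher (12.9% of all genes) and 2 lower (8%), and at 1w 1 was lower (1.51%). Tob2 rose at 6h by 1.29 ± 0.22, with 65.5 ± 8.45 RPKM in IR and 28.0 ± 12.1 RPKM in SH, and Cdkn2b, which encodes the p15 inhibitor, by 0.93 ± 0.22. Mean sham values of Cdkn2b were 0.0636 to 0.276 RPKM over the times, so its call can follow in part from the filter. Ccng2, the paralog of Ccng1, went the other way and fell by 1.36 ± 0.21, with 15.0 ± 4.15 RPKM in IR and 42.1 ± 17.9 RPKM in SH, and Cdkn1b, which encodes p27, fell by 0.93 ± 0.22. Against SH 6h libraries 5 and 6 alone, 0 of these 11 were called (1.56% of all genes were called higher and 0.533% lower). At 1w Cdkn1c, which encodes p57, fell by 0.99 ± 0.26 (limma adjusted p = 0.0266).

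The engine of G1 moved in part. Of 30 listed G1 cyclins, kinases, RB and E2F genes 10 were tested, and 2 were higher at 2h (4.6% of all genes), 4 at 6h (12.9%) and 2 at 1d (2.9%), while 1 was lower at 1d (1.39%). With a filter of at least 10 reads in 6 libraries in place of 1 RPKM, 27 were tested. At 2h 4 were then higher (5.43% of 11479 genes) and 2 lower (4.56%), at 6h 4 higher (13.6%) and 2 lower (9.68%), at 1d 2 higher (3.41%) and 1 lower (1.63%), and at 1w 1 higher, Ccne1 (2.3%). Low genes can pass this filter through a single group of 6 libraries where they are high, so such calls can follow in part from it. Ccnd1, the gene of cyclin D1, held 21.6 ± 3.82 RPKM in IR and 4.91 ± 1.65 RPKM in SH at 6h, and 25.1 ± 15.4 RPKM in IR and 5.45 ± 1.33 RPKM in SH at 1d, changes of 1.97 ± 0.23 and 1.90 ± 0.23; it also stands in the list of other p53 targets above. Cdk6, its kinase partner, rose by 0.88 ± 0.09 at 2h, and Rbl2, a pocket protein related to RB, by 0.74 ± 0.14. At 6h Cdk4 rose by 1.16 ± 0.24 and Myc by 1.00 ± 0.31, and at 1d Rbbp4, a histone-binding partner of RB, fell by 0.70 ± 0.14. Against SH 6h libraries 5 and 6 alone, Ccnd1 was the 1 gene of the list still called at 6h.

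**Figure D4:**
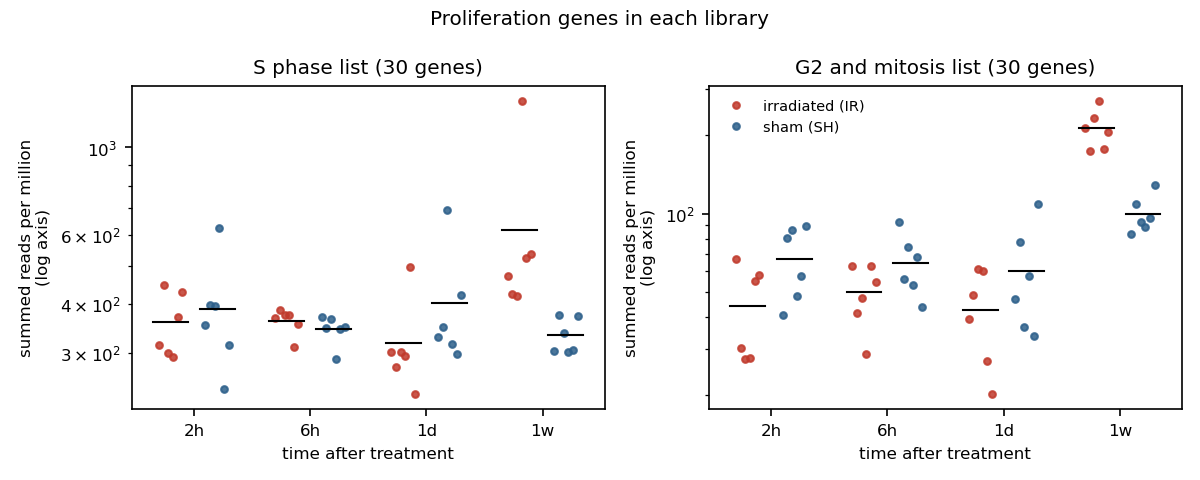
Summed RPM (log y axis) of the 30 S phase genes (left) and the 30 G2 and mitosis genes (right) in each library, by time after treatment (x axis), with IR in red, SH in blue and black bars at the means (n = 6). At 1w every irradiated library lies above every sham library in both lists, 174 to 272 in IR and 83.8 to 129 in SH for G2 and mitosis.

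Genes of division were low at all times and higher in irradiated microglia at 1w, when Cdkn1a was still 29.1-fold up. The 30 genes of G2 and mitosis summed to 174 to 272 RPM in IR at 1w and to 83.8 to 129 in SH, whereas at 2h, 6h and 1d the ranges overlapped, with medians of 42.6, 51.0 and 43.9 in IR and 69.0, 61.9 and 52.3 in SH. The 30 S phase genes summed to 420 to 1315 in IR at 1w, with the highest value in IR library 4 and the next at 536, and to 302 to 374 in SH.

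Of these lists, 5 of 30 G2 and mitosis genes and 11 of 30 S phase genes passed the filter of 1 RPKM. At 1w 1 of each list was higher (2.03% of all genes), Cdca3 (1.01 ± 0.22) and Mcm6 (0.75 ± 0.14). At 6h Mcm6, a part of the replicative helicase, fell by 0.44 ± 0.14 (8% of all genes were called lower). Against SH 6h libraries 5 and 6 alone, Mcm6 was not called at 6h. limma called 0 G2 and mitosis genes at 2h, 6h and 1d, where an unadjusted p under 0.05 named 1 lower, 1 lower and 1 higher. Of all genes, 4.02%, 8% and 1.39% were called lower and 4.6%, 12.9% and 2.9% higher at these times, so 0 of 5 tells little. With a filter of at least 10 reads in 6 libraries in its place, 19 and 23 genes were tested, and 10 and 3 were higher at 1w (2.3% of 11479 genes). Genes this low can pass either filter through the 6 irradiated libraries of 1w alone. The mean of Cdca3 was 1.88 RPKM in IR at 1w and at most 0.493 RPKM in any other group. The 1w calls of both lists can therefore follow in part from the filter and are given as descriptions. Mki67, the Ki-67 proliferation marker, held 27.6 ± 11.4 RPM in IR and 8.27 ± 7.44 in SH at 1w (limma adjusted p = 0.00194, with 4 of 6 irradiated libraries above all sham libraries), and Top2a, the topoisomerase of dividing cells, 18.3 ± 7.28 in IR and 4.92 ± 4.96 in SH (limma adjusted p = 0.00236). Ccnb2, a mitotic cyclin, held 6.45 ± 1.35 RPM in IR and 2.28 ± 1.68 in SH (limma adjusted p = 0.00697). In every library of the same irradiated group, Cdkn1a held at least 75.0 RPKM.

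Cell type markers were read beside these results. At 6h the 8 markers of neural progenitors summed to 36.1 to 70.7 RPM in IR, with 3 of 8 at 0, and to 5.62 to 31.1 in SH, with 2 of 8 at 0. Nes alone held 35.6 to 69.1 of this sum in IR and 4.22 to 29.9 in SH; Sox2, Neurod1 and Igfbpl1 were at 0 in all 6 IR libraries and Dcx was at most 0.540 in IR and 0.842 in SH. Monocyte and neutrophil markers summed to 25.1 to 91.9 in IR, with 5 of 9 at 0, and to 12.9 to 51.3 in SH, with 7 of 9 at 0, at 1d. At 1w neural progenitor markers summed to 0 to 5.74 in IR and 2.38 to 19.5 in SH, and monocyte and neutrophil markers to 11.9 to 24.5 in IR and 6.54 to 38.1 in SH, beside the higher division genes. Neuron markers summed to 365 in IR 1w library 4, to at most 3.97 in the other IR 1w libraries and to 0 to 6.27 in SH, with 3 of 8 at 0 in IR and 2 of 8 at 0 in SH. Slc17a7, a glutamate transporter of neurons, alone reached 365 in a library of IR at 1w, while Syt1, Gad2 and Stmn2 were at 0 in all 6. That library also held the highest S phase and G2 and mitosis sums; without it the IR ranges were 420 to 536 and 174 to 234, still above all SH libraries. In a fit added after seeing the data, with the filter on reads and without that library, 2 S phase genes and 6 G2 and mitosis genes were higher at 1w (1.61% of all genes). These calls, too, can follow in part from the filter. At 6h other markers also differed: those of perivascular macrophages summed to 41.1 to 80.9 in IR and 108 to 173 in SH, those of astrocytes to 33.7 to 69.5 in IR and 11.4 to 39.5 in SH, and those of oligodendrocyte progenitors to 2.86 to 21.2 in IR and 0 to 5.62 in SH, with 0 of 7, 0 of 6 and 0 of 5 at 0 in either group. The part of these markers in the values of the 8 genes and of the lists was not tested.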

How the data were processed

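The authors deposited 1 table of RPKM values for 48 libraries and 48526 genes. Per the submitters' processing notes, reads were handled with featureCounts 1.5.1, STAR 2.6.1d, bcl2fastq 2.20.0 and FastQC 0.11.8, and GRCm38 is named as a build; strand and annotation settings are not given in the sources used here. All 719081 deposited values above 0 are whole reads (100% within 0.001 reads) scaled by gene span and by the total of a library, but only 2.05% by that of their own library. Reads were recovered, and RPKM was recomputed with each library's own total, which moved values by factors of 0.436 to 3.11 (5th to 95th percentile, deposited over recomputed).

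log2(RPKM + 1) of the 10132 genes with at least 1 RPKM in at least 6 of 48 libraries was fitted with limma 3.58.1 (trend and robust options) in R 4.3.3, as 8 groups with 40 residual degrees of freedom. P-values were adjusted over all genes by Benjamini-Hochberg with a threshold of 0.05. They rest on a spread between animals that was pooled over the 8 groups and drawn toward that of other genes. A gene therefore has the same standard error at each time, whatever the spread within the groups compared. Recovery and fit were tested on simulated data. Tables were handled in Python 3.11.15. Alternatives were a pseudocount of 0.1, other filters, other scalings, limma voom on the recovered reads, the deposited values, a replicate block, each time alone, libraries under 1000000 reads left out, subsets of SH 6h libraries and each library left out in turn. A fit with the read filter and without IR 1w library 4 was chosen after seeing the data. All 8 genes were named, up to 4 genes per list and time by adjusted p, and the nearest genes by likeness. Genes and lists were chosen with earlier results of these data known. Totals of 175382 to 3856777 reads limit low genes, and floors of 3 reads cover counting error only.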

Additional observations from a re-analysis of the deposited data

Results flagged for a closer look

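In 8 of 63 groups of 6 libraries, 1 library lay far from the other 5. The rule used marks about 1 in 20 groups of normally distributed values by chance. That rate need not hold for groups with few reads, such as those of Gtse1 and Psrc1 in SH, so no excess over chance is shown. Irradiated groups gave none of the 8. Cdkn1a was high in SH 2h library 2 (4.55 RPKM) and in SH 6h library 5 (6.99 RPKM), both still far under the lowest irradiated libraries. Ccng1 was low in SH 2h library 5 (8.38 RPKM) and Btg2 in SH 1d library 3 (153 RPKM). Gtse1 was high in SH 2h library 6 (0.390 RPKM) and SH 1w library 1 (0.297 RPKM), and Psrc1 in SH 1w library 6 (0.880 RPKM). Gadd45a was high in SH 2h library 6 (26.1 RPKM), the library with 103 of its 256 reads.

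The effect of irradiation itself differed between times in 13 tests of a change of effect by limma. Between 2h and 6h the change was 1.34 for Plk3, 0.87 for Psrc1 and -1.12 for Plk2. Between 6h and 1d it was -1.63 for Gtse1, -1.13 for Plk2 and -0.68 for Ccng1. Between 1d and 1w it was -1.48 for Psrc1, -1.20 for Plk2 and -1.18 for Ccng1. Between 2h and 1w it was -3.46 for Plk2, -2.39 for Gtse1, -1.91 for Ccng1 and -1.35 for Psrc1.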

How the results depend on the processing

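The calls of higher Cdkn1a and Ccng1 at all 4 times, and of higher Plk2 at 2h and 6h, held under every alternative run on the recomputed values; no value turned its direction past the threshold. With the values as deposited, 1 of 8 genes was higher at 1w, in place of 3. The count of genes with a larger effect at 6h than at 2h was 1 with a pseudocount of 0.1, 1 without a filter, 1 with voom, 1 without libraries under 1000000 reads, 0 as deposited and 0 against SH 6h libraries 5 and 6 alone, and 1 to 3 with a library left out. The count with a smaller effect was 0 under these same 6 alternatives and 0 to 1 with a library left out. Fewer genes also had a smaller effect at 1d than at 6h (0 as deposited, 1 with voom, 1 against SH 6h libraries 5 and 6), at 1w than at 1d (1 with a pseudocount of 0.1, 0 as deposited, 1 with voom) and at 1w than at 2h (2 as deposited). The causes were not tested. The count of genes lower at 2h was 0 to 1 with a library left out.

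Over all genes, changes of effect between 2h and 6h split into 563 higher and 377 lower, but into 458 and 507 with mitochondrial genes left out of the totals. Between 2h and 1w they split into 232 and 197, but into 184 and 239 with median-ratio factors and 187 and 241 without mitochondrial genes. Most libraries did not correlate best with their own replicate number: 2, 1, 1 and 1 of 6 did so at the 4 times. At 2h the same-number correlations of deviations were all positive, between 0.0162 and 0.137. Their mean was 0.073, against -0.015 for other numbers at 2h. Asking which number a library matched best cannot detect a split shared by several numbers, such as that of the immediate early genes at 2h. With a replicate block, Plk2 at 1w was called (0.53, limma adjusted p = 0.0416) and no count of calls moved by over 1.5 times. Depth limits Gadd45a and, in sham libraries, Psrc1 and Gtse1, which rest on few reads.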
